A study of Mus musculus with 16 samples.

Results

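Lysine-specific demethylase 1 (LSD1) acts inside a corepressor complex, and the genes that encode this complex were examined at the chromatin level in mouse CD8+ T cells grown with or without an LSD1 inhibitor. The set held 10 of the 21000 protein-coding genes of the mouse RefSeq annotation: Kdm1a, Kdm1b, Rcor1, Rcor2, Rcor3, Hdac1, Hdac2, Phf21a, Hmg20b and Zmym2. They were named for their place in the complex or, for Kdm1b, as the paralog of LSD1, so the rule uses no measured value, although the set was proposed with earlier results of these data known. Each gene was given a locus, its body plus 20 kb on each side (mm10), and every deposited peak in a locus was assigned to the promoter (overlapping by at least 1 bp the 1 kb on either side of an annotated transcription start site, TSS) or to the rest of the locus. The 10 loci covered 932.4 kb in all, and the median locus was 80.6 kb long, against 56.7 kb over all protein-coding genes.

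All cells were splenic CD8+ T cells of OT1 mice, which carry a transgenic T-cell receptor. Activation took 48 h on plate-bound anti-CD3, with soluble anti-CD28 and IL-2 in the medium, and a further 3 days of growth in IL-2 followed. The GSK cells received 0.5 μM GSK2879552, an irreversible inhibitor of LSD1, throughout both steps, and the Veh cells received vehicle. ChIP-seq, the sequencing of DNA pulled down with a bound protein or mark, used 6 antibodies in each treatment. They recognised LSD1, RNA polymerase II (Pol II), the methylation states H3K4me1, H3K4me2 and H3K4me3, and the acetylation H3K27ac. This gave 12 libraries with 1 peak list each, and the other 4 samples were inputs. The study states that its ChIP-seq was repeated, and the repeat was not analysed here. With 1 deposited library for each antibody and treatment, no difference between Veh and GSK was tested and no p-value is given for one. The share of all protein-coding genes with the same property stands beside the promoter and locus counts.

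The lists set how a missing peak can be read. They held from 2751 peaks (H3K27ac in GSK) to 40272 peaks (H3K4me1 in GSK), and the H3K27ac list of Veh held 7410. The lists hold no read depth. By the library totals that the study states, the Veh library was the deeper one for H3K27ac, by a wide margin, and for H3K4me2 and LSD1, and the GSK library for H3K4me1 and H3K4me3. In each of these pairs the deeper library also had the longer list. Pol II, which those totals name polIII, went the other way: the GSK library was deeper and its list slightly shorter (15401 peaks against 15638). The part of depth in the differences between treatments was not tested. A peak missing from 1 list was not detected there and is not shown to be absent. As a check of the label, 8 of 8 T-cell markers (Cd8a, Cd8b1, Cd3d, Cd3e, Cd3g, Lck, Thy1 and Ptprc) had a promoter H3K4me3 peak in both treatments, against 0 of 4 B-cell markers, 0 of 2 NK-cell markers and 1 of 5 myeloid markers (Cd14). The erythroid marker Klf1 also had promoter H3K4me3 in both treatments, without Pol II.

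LSD1, encoded by Kdm1a, removes methyl groups from mono- and dimethylated lysine 4 of histone H3 and cannot act on the trimethylated form. It is held on nucleosomes by the CoREST scaffold proteins (Rcor1, Rcor2 and Rcor3), which also bind the histone deacetylases Hdac1 and Hdac2, so that deacetylation and demethylation are coupled. Phf21a (BHC80) reads H3 tails with unmethylated lysine 4, Hmg20b (BRAF35) is an HMG-box DNA-binding subunit, and Zmym2 is a zinc-finger partner of the complex. Kdm1b (LSD2) is the only other mammalian demethylase of this amine-oxidase family.

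H3K4me3, the mark of active or poised promoters, lay at the promoter of 10 of 10 genes in both treatments, against 56.3% of all protein-coding genes in Veh and 57.5% in GSK. LSD1 itself lay at the promoter of 8 of 10 genes in Veh (40.9% of all genes) and of 10 of 10 in GSK (46.9%). All 8 Veh promoters with LSD1 also had a GSK peak, so 8 of 10 members had one in both lists, against 36.1% of all genes. Most genes with LSD1 in Veh had it in GSK too: 7581 of 8599. Of the 8 Veh peaks at member promoters, 7 were overlapped by a GSK peak. The additional promoters in GSK were those of Kdm1b and Rcor1; a promoter LSD1 peak in GSK alone was found at 10.8% of all genes, and one in Veh alone, seen at 0 of 10 members, at 4.85%.

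The other marks were less uniform. H3K4me2 lay at 8 promoters in Veh (44.2% of all genes) and 9 in GSK (32.0%). All 8 Veh promoters had it in both lists, as did 6278 of the 9272 genes with it in Veh. Over all genes, 29.9% had the mark in both. Hdac1 was the gene with promoter H3K4me2 in GSK alone, which 2.09% of all genes showed. H3K4me1, typical of enhancers and promoter flanks, lay at 5 promoters in Veh (33.3% of all genes) and at 5 in GSK (40.4%), with Rcor3 in Veh alone (3.70%) and Phf21a in GSK alone (10.8%). H3K27ac, a mark of active elements, lay at 3 promoters in Veh (22.9%) and at 1 in GSK (9.55%): Hdac1 and Hdac2 had it in Veh alone (13.8%) and Rcor1 in both (9.16%). When the H3K27ac list of Veh was cut to the 2751 strongest peaks, the length of the GSK list, Hdac2 was the 1 member left with a promoter peak in Veh. Pol II lay at 5 promoters in Veh (33.1%) and at 3 in GSK (28.1%), with Kdm1b, Rcor1 and Phf21a in Veh alone (8.28%), Rcor3 in GSK alone (3.30%), and Hdac1 and Zmym2 in both (24.8%).

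**Figure D1:**
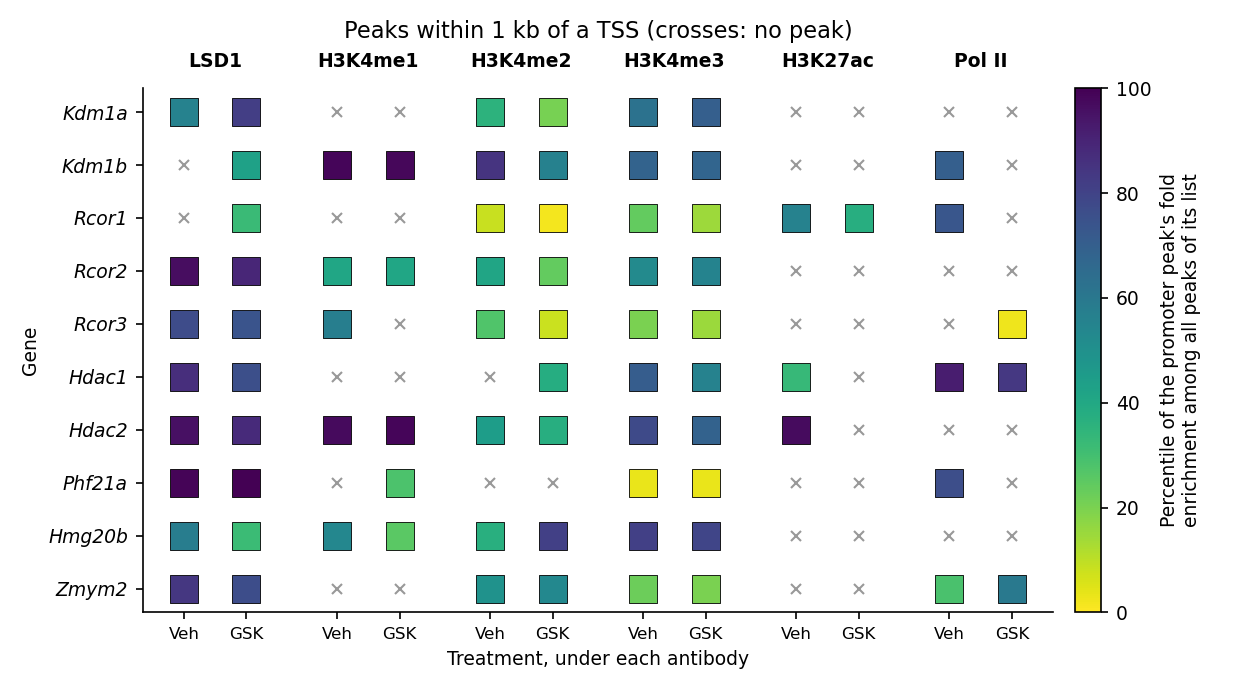
Promoter peaks of the 10 genes (rows) in the 12 libraries (columns, by antibody and treatment). Each square is the promoter peak with the highest fold enrichment, coloured by the percentile of that fold among all peaks of its list, and a cross marks no peak; H3K4me3 fills both columns for 10 of 10 genes, and the darkest LSD1 squares are at Phf21a.

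The strength of each peak is given as its fold enrichment over input and as the percentile of that fold among all peaks of the same list, because a list's own level differs between libraries. For narrow LSD1 and Pol II peaks the fold is taken at the summit, and for the histone marks it is an average over the region, so wide regions have lower values. The promoter LSD1 peaks of the members had a median fold of 5.93 in Veh (8 genes, median percentile 85.5) and 5.60 in GSK (10 genes, median percentile 76.4). Over all genes with a promoter LSD1 peak, the median percentiles were 57.9 and 64.6. In Veh, 8 of 8 member peaks lay above the middle of the list, and in GSK 7 of 10 did.

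**Figure D2:**
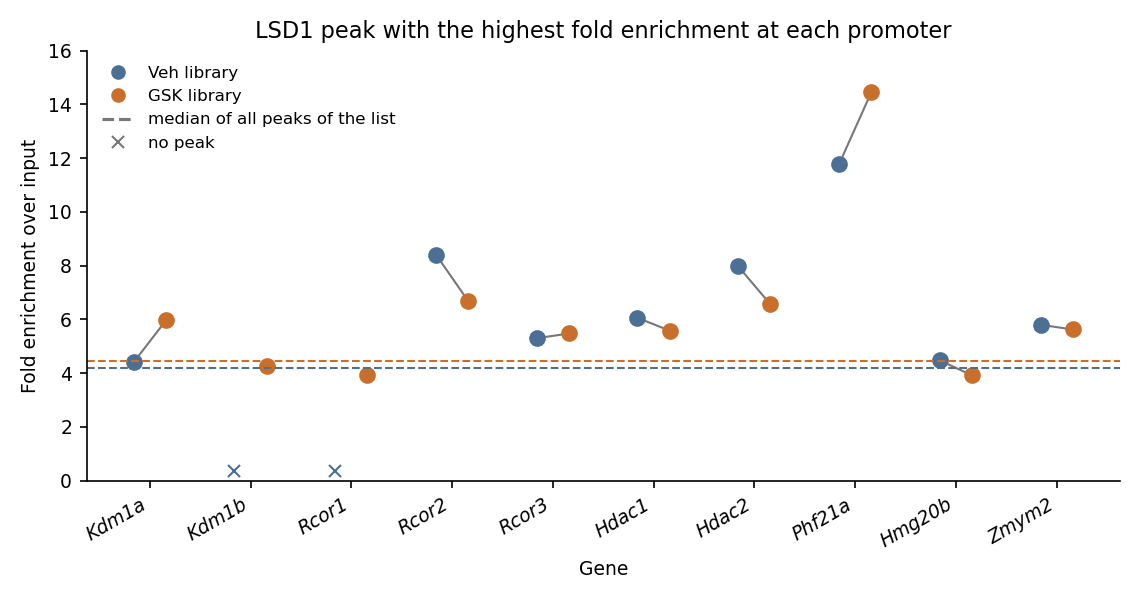
Fold enrichment over input (vertical axis) of the strongest promoter LSD1 peak of each gene in the Veh (blue) and GSK (orange) libraries, joined where both exist; dashed lines are the medians of all peaks of each list and crosses mark no peak. Phf21a stands highest in both libraries (11.8 and 14.4), and Kdm1b and Rcor1 have a point in GSK alone.

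Among the 8 promoters with LSD1 in both lists, the GSK fold was higher at 3 (Kdm1a, Rcor3 and Phf21a) and lower at 5, and the median ratio of GSK to Veh was 0.945. These values compare the strongest promoter peak of each list. At Rcor3 the strongest GSK peak did not overlap the Veh peak, and the GSK peak that did was lower than it (3.80 against 5.30). Over the 7581 genes with LSD1 in both, the median ratio was 1.15 and 72.4% were higher in GSK. In percentiles, 2 of the 8 rose and 6 fell (median -7.38 points, against 6.43 points over all genes). These are differences between single libraries, and their spread between replicates is unknown.

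Kdm1a is the gene of LSD1 itself (chr4:136550533-136602723, minus strand). At its promoter the LSD1 fold was 4.40 in Veh and 5.96 in GSK, or percentiles 56.0 and 82.0, the largest rise among the 8. The peak was 455 bp wide in Veh and 1078 bp in GSK, and its summit lay 141 bp upstream of the TSS in Veh and 516 bp downstream of it in GSK. H3K4me3 was at fold 6.33 in Veh and 6.86 in GSK, and H3K4me2 at 4.33 and 4.37, although the Veh H3K4me2 peak dropped out when that list was cut to the length of the GSK list. No list held a promoter peak of H3K4me1, H3K27ac or Pol II for Kdm1a, so the 2 marks and the enzyme stood there without detected polymerase in either treatment. The 250 bases before the TSS, which hold the Veh summit, are shown from RefSeq (GRCm38.p6, the assembly of mm10) for Kdm1a, and for Kdm1b and Rcor1 because their LSD1 peaks were listed in GSK alone, and for Hdac2 as a strong promoter peak in both lists. The Kdm1b and Rcor1 stretches overlapped no LSD1 peak, and the Hdac2 stretch overlapped the peak of both lists but held neither summit. Capitals mark matches on either strand to any of 6 motif letters: CCGGAA (ETS), TGTGGT (RUNX), TGANTCA (AP-1), AATCAC (GFI1), GGGCGG (GC box) and GGTGTGA (T-box).
Kdm1a, chr4:136602724-136602973, minus strand: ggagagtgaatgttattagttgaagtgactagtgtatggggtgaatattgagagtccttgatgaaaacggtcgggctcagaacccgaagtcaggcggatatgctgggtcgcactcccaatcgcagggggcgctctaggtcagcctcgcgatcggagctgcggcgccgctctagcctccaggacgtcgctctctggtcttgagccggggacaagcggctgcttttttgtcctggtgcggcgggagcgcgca
Kdm1b, chr13:47043249-47043498, plus strand: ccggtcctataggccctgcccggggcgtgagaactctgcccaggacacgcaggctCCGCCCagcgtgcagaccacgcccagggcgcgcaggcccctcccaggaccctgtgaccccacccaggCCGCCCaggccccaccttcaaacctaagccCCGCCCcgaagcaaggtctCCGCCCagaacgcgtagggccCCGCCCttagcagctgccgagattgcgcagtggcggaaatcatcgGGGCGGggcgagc
Rcor1, chr12:111039117-111039366, plus strand: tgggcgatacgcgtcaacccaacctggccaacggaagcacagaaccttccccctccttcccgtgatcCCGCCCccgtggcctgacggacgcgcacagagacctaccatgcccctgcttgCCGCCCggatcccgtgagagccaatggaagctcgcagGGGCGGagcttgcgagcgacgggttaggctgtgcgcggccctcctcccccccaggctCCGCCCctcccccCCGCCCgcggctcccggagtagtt
Hdac2, chr10:36974294-36974543, plus strand: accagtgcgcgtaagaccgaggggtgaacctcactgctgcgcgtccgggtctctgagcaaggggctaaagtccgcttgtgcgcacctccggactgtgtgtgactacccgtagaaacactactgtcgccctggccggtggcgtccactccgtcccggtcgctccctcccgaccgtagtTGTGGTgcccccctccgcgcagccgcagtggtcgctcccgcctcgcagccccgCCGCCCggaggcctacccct

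The Kdm1a stretch had 0 matches to the 6 motifs and a GC content of 59.2%. Kdm1b held the GC box 6 times at 71.6% GC, Rcor1 held it 5 times at 70.4%, and Hdac2 held it 1 time with 1 RUNX match at 68.8%. RefSeq promoters were matched for 9 of the 10 genes, with 13 entries in all because some genes have several starts. The GC box was found in 10 of these 13 entries, against 32.7% of the 32851 promoter entries of the same length. The ETS letters were in 1 of 13 (Rcor3; 12% of all promoters), the RUNX letters in 1 (14.0%), and the AP-1, GFI1 and T-box letters in 0 (6.75%, 9.14% and 3.33%). Several of the 13 overlap each other, and a match describes the letters and is not a bound site.

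Away from its promoter Kdm1a had few peaks, most of them in introns. An H3K4me1 region in intron 8 of the longest transcript, about 32.5 kb downstream of the TSS, was listed in both treatments (fold 5.17 in Veh and 3.97 in GSK). A further H3K4me1 region stood in intron 1 in each treatment, at 1756 bp from the TSS in Veh and at 6331 bp in GSK, and these did not overlap. Pol II had peaks in introns 7 and 2 in Veh (fold 3.49 at each) and 1 peak over the 3' UTR of the neighbouring Luzp1 in GSK (3.04). LSD1 had 0 peaks outside the promoter at this locus in either treatment.

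The 5 promoters most like that of Kdm1a, by Euclidean distance over the 12 percentiles (0 where a list held no peak), were those of Prkaa1, Tex264, Cnih1, Golm1 and Leo1, at distances of 16.2, 17.5, 18.1, 21.3 and 23.7 percentile points. Prkaa1, a catalytic subunit of AMP-activated kinase, had LSD1 at percentiles 63.6 in Veh and 85.3 in GSK. In all, 217 of 20999 other genes (1.03%) had promoter peaks in exactly the same 6 lists as Kdm1a.

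Kdm1b (chr13:47043499-47085279, plus strand) starts 0.282 kb from the divergent gene Tpmt, so their promoter peaks cannot be told apart. LSD1 was listed there in GSK alone, at fold 4.26 (percentile 42.6), with its summit 135 bp downstream of the TSS. H3K4me1 was among the strongest of its lists, at fold 6.30 in Veh and 6.10 in GSK (percentiles 98.7 and 98.4). H3K4me2 went from fold 5.77 (percentile 85.1) to 5.10 (56.4), and H3K4me3 was at 6.68 and 6.71. Pol II was listed in Veh alone, at fold 4.83, with its summit 95 bp downstream of the TSS. The strongest LSD1 peak outside the members' promoters found in Veh alone also belonged to this gene, in intron 20, 37.7 kb from the TSS, at fold 5.21, and the nearest GSK peak was 24.2 kb away.

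Rcor1, the CoREST1 scaffold, spans chr12:111039367-111115902 on the plus strand. LSD1 had 2 promoter peaks in GSK, at fold 3.94 with its summit 435 bp upstream and at 2.61 with its summit 612 bp downstream (percentiles 32.2 and 0.201), and none in Veh. Its H3K4me3 region was wide, 2267 bp at fold 4.52 in Veh and 2215 bp at 4.12 in GSK. H3K27ac lay at the promoter in both treatments, at fold 4.01 in Veh and 4.68 in GSK, and Rcor1 was the 1 member of which this was true. Pol II was listed in Veh alone, at fold 5.05 with a summit 635 bp upstream. H3K4me2 flanked the TSS on both sides in Veh (3.54 and 3.25) and stood on the downstream side in GSK (3.52). Just 1 other gene of 20999 had promoter peaks in the same 8 lists.

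Rcor1 also held an element away from promoters with 4 histone marks. In intron 2, 32.5 kb downstream of the TSS, H3K4me3 was listed in both treatments (5.34 in Veh and 5.83 in GSK), as were H3K4me2 (4.49 and 4.20) and H3K4me1 (3.16 and 3.14). H3K27ac was listed over it in Veh alone (3.59), and the nearest H3K27ac peak of GSK was 32.6 kb away. No start of another annotated gene lies in this locus. LSD1 was not listed at this element. The LSD1 peak of the locus outside the promoter, in Veh alone at fold 4.19, lay 83.1 kb from the TSS beyond the end of the gene.

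Rcor2 and Rcor3 are the other CoREST scaffolds. Rcor2 (chr19:7267394-7275225, plus strand) had the second highest promoter LSD1 fold, 8.41 in Veh (percentile 96.7) and 6.68 in GSK (89.3), with summits 499 and 508 bp from the nearest of its 2 TSSs. H3K4me2 was at 4.45 in both treatments, H3K4me3 at 5.82 in Veh and 6.02 in GSK, and H3K4me1 at 3.77 and 3.62. H3K27ac and Pol II were not listed at this promoter in either treatment. The same 8 lists were shared by 1277 other genes (6.08%), Hmg20b among them.

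Rcor3 (chr1:192098546-192138040, minus strand) kept LSD1 with a different outline. In Veh it had 1 peak of 1012 bp at fold 5.30 with a summit 432 bp upstream, and in GSK it had 2, at fold 5.47 (882 bp downstream) and 3.80 (60 bp upstream). H3K4me3 was at 4.36 in Veh and 4.13 in GSK, and H3K4me2 at 4.15 and 4.0, over regions of 2118 and 2077 bp and of 1761 and 1682 bp. Pol II was listed in GSK alone, at fold 2.69, percentile 2.45 of its list. The noncoding gene Gm10516 starts 1.142 kb inside Rcor3, and Traf5 starts 45.4 kb downstream of the Rcor3 TSS. The GSK LSD1 peak at fold 5.47 covers the start of Gm10516, so it may belong to either gene. At the Traf5 promoter Pol II was listed in Veh alone at fold 9.54 and LSD1 in GSK alone at 3.65.

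The deacetylase genes had the third and the fourth highest promoter LSD1 fold of the set in Veh. Hdac1 (chr4:129516104-129542646, minus strand) had LSD1 at fold 6.06 in Veh and 5.58 in GSK, and Hdac2 (chr10:36974544-37001888, plus strand) at 7.97 and 6.56. Their percentiles changed by -10.7 and -7.53 points from Veh to GSK. H3K4me3 was lower in GSK at both genes, at 6.83 and 6.06 for Hdac1 and 7.30 and 6.76 for Hdac2, and these were the members with the lowest GSK to Veh ratios for this mark apart from Rcor1 (0.887, 0.926 and 0.911). H3K27ac was listed in Veh alone at fold 3.63 for Hdac1 and 6.0 for Hdac2, the latter at percentile 97.0.

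Pol II separated the deacetylase genes. Hdac1 had the strongest promoter Pol II of the set, at fold 7.32 in Veh (percentile 92.1) and 4.80 in GSK (83.8), with summits 15 and 26 bp downstream of the TSS. Over all genes with promoter Pol II in both lists, the median ratio of GSK to Veh was 0.809 and 17.5% were higher in GSK. Hdac2 had no Pol II peak in its locus in either treatment, and no peak of any antibody outside its promoter. It had instead a strong H3K4me1 flank, at fold 5.92 in Veh and 6.16 in GSK (percentiles 97.3 and 98.5), upstream of H3K4me2 at 4.52 and 4.70.

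The Hdac1 locus reaches other genes: Lck, the kinase that starts T-cell receptor signalling, begins 15.7 kb upstream, and Marcksl1 starts 29.1 kb downstream on the opposite strand. H3K4me1 had 3 peaks outside the Hdac1 promoter in Veh and 7 in GSK. The GSK peak in Hdac1 intron 3, 16.9 kb from the TSS, was at fold 5.69, percentile 96.8 of its list, and the nearest Veh peak was 10.4 kb away. At the Marcksl1 promoter LSD1 was listed in GSK alone at fold 5.66, H3K4me3 went from 7.57 to 8.09, and Pol II from 4.10 to 8.16. Pol II thus stood higher in GSK at Marcksl1 and lower at Hdac1 within 1 locus. An intergenic site about 41.7 kb from the Hdac1 TSS carried H3K4me3 (7.09 and 7.28) and H3K4me2 (6.17 and 6.64) in both treatments and LSD1 in GSK alone (3.42).

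**Figure D3:**
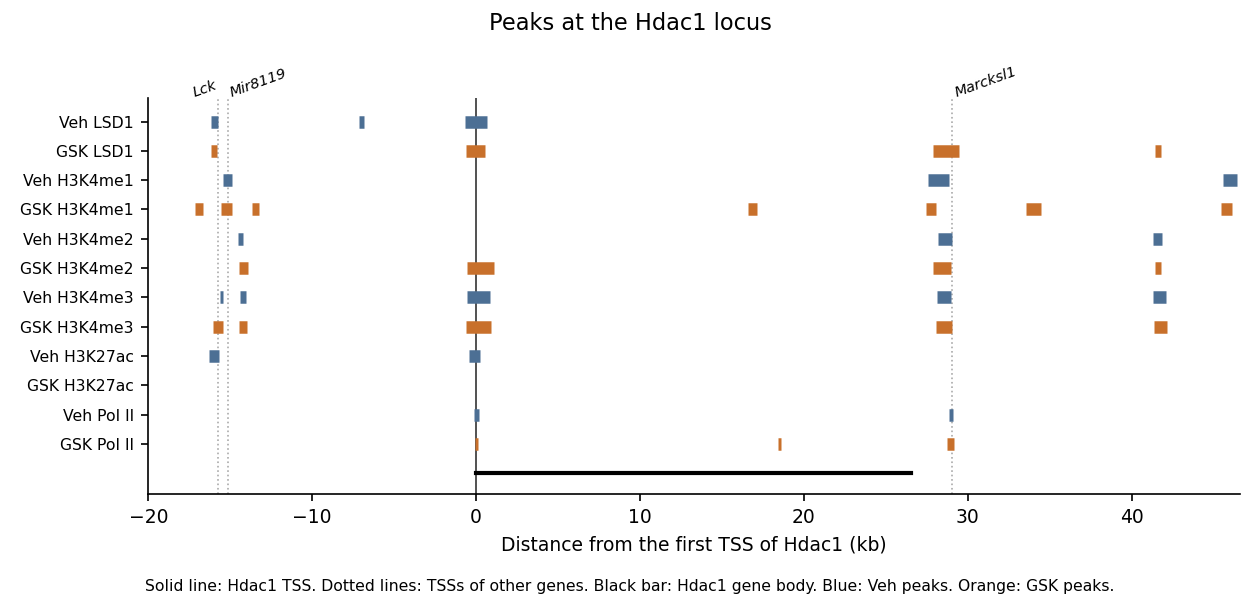
Peaks of the 12 libraries (rows) over the Hdac1 locus by distance from the Hdac1 TSS in kb, read in the direction of Hdac1 transcription; blue bars are Veh peaks, orange bars GSK peaks, the black bar the gene body, and dotted lines the starts of Lck, Mir8119 and Marcksl1. LSD1, H3K4me3 and Pol II stack at the Hdac1 TSS in both treatments, H3K4me2 there is listed in GSK alone, and an H3K4me1 peak stands 16.9 kb inside in GSK alone.

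Phf21a, whose protein reads unmethylated H3 lysine 4, carried the strongest LSD1 peak of the set (chr2:92184182-92364666, plus strand, with 3 annotated TSSs). The fold was 11.8 in Veh and 14.4 in GSK, at percentiles 99.2 and 99.9. By -log10 p the peak ranked 38 of 21252 in Veh and 12 of 19919 in GSK. The summit fell at the same distance in both libraries, 721 bp upstream of the first TSS. The bases around it, 50 on each side (chr2:92183411-92183511, plus strand) are shown because no other member peak was as strong, and capitals mark 2 overlapping GC box matches on the minus strand.
Phf21a LSD1 summit: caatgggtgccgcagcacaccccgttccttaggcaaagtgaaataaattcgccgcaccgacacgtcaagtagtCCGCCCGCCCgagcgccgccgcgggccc

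The same promoter carried the lowest H3K4me3 fold of the set. Its fold was 3.13 in Veh and 3.16 in GSK (percentiles 3.15 and 3.47), averaged over regions of 3082 and 2943 bp that ran across the first 2 TSSs. By -log10 p the same regions stood at percentiles 37.7 and 42.1 of their lists. By that measure Rcor2 was slightly lower in Veh (37.4) and higher in GSK (48.2). H3K4me2 was not listed within 1 kb of a TSS in either treatment, and its nearest Veh region ended just outside that window, on the upstream side at fold 3.31, with no GSK peak within 122.8 kb. H3K4me1 was listed at the promoter in GSK alone (3.27), and Pol II in Veh alone at fold 5.31, with a summit 814 bp upstream of the TSS, within the LSD1 peak. The highest LSD1 fold and the lowest H3K4me3 fold of the set thus stood at 1 promoter in both treatments, where the H3K4me3 regions were also the widest of the set. H3K27ac was not listed anywhere in the 220.5 kb locus.

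Inside the gene, Phf21a had H3K4me1 regions in introns 1 and 6. Of those in intron 6, the one 20.0 kb downstream of the third TSS had fold 4.04 in Veh and 4.93 in GSK, percentiles 51.7 and 88.1, and the one 35.1 kb downstream had 3.94 in Veh and 3.84 in GSK. The latter held the 1 LSD1 peak of the locus outside promoters, listed in Veh alone at fold 3.49. It was also the 1 element with LSD1 among those classed as enhancers (described further on) at the 10 loci.

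**Figure D4:**
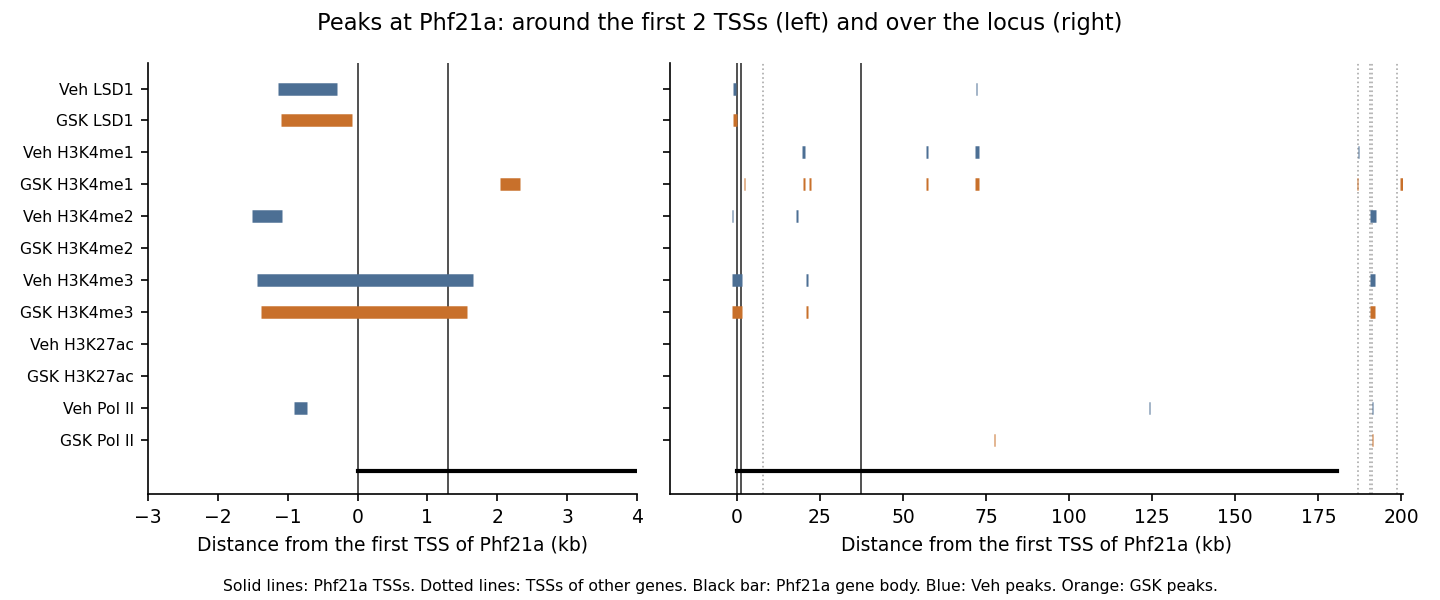
Peaks of the 12 libraries (rows) at Phf21a by distance from its first TSS in kb, with Veh peaks in blue, GSK peaks in orange, the gene body in black, Phf21a starts as solid lines and other genes' starts as dotted lines. The left panel shows LSD1 upstream of the first TSS in both treatments inside a wide H3K4me3 region, with H3K4me2 in Veh alone at its upstream edge; the right panel shows the whole locus.

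Hmg20b (chr10:81346046-81350457, minus strand) is the shortest gene of the set and lies among 4 other starts (Gipc3, Mfsd12, Tbxa2r and 4930404N11Rik). LSD1 was listed at its promoter in both treatments, at fold 4.47 in Veh and 3.91 in GSK, but the peaks did not overlap: the Veh summit lay 551 bp upstream of the nearest TSS and the GSK summit 153 bp downstream. Its percentile fell the most, from 58.2 to 31.7. H3K4me2 went the other way, from fold 4.36 (percentile 37.1) to 5.88 (81.0), the largest rise of this mark among the 8 members that had it in both. H3K4me3 was the strongest of the set at 7.58 in Veh and 7.52 in GSK, and H3K27ac and Pol II were not listed at the promoter.

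Zmym2 (chr14:56886603-56962358, plus strand) had LSD1 at fold 5.80 in Veh and 5.62 in GSK, with summits 896 and 967 bp upstream of the nearer of its 2 TSSs. GSK had a further peak, at fold 3.75, 458 bp downstream. Pol II was at fold 3.45 in Veh (percentile 28.6) and 3.70 in GSK (59.7), with summits 1093 and 1103 bp upstream, which placed only the edge of each peak in the promoter window. H3K4me3 covered 2508 bp at fold 4.46 in Veh and 2587 bp at 4.38 in GSK.

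Outside the members' own promoters, the 10 loci held 10 LSD1 peaks in Veh and 9 in GSK, at 7 loci and 4 loci. LSD1 outside the promoter was found at the loci of 53.4% of all genes in Veh and 52.4% in GSK. Of the 10 Veh peaks, 4 were within 1 kb of another gene's TSS (Mark2, Lck, Tbxa2r and Mfsd12) and all 4 were overlapped by a GSK peak. The other 6 were away from any TSS and 0 of them were overlapped. Of these, the peaks at Zmym2, Phf21a and Hdac1 were weak, with −log10 q of 0.83, 1.58 and 1.74. At a −log10 q of at least 2, the loci held 7 LSD1 peaks outside promoters in Veh and 8 in GSK. Over the whole Veh list, 83.0% (95% Wilson interval, 82.2 to 83.8) of LSD1 peaks at a TSS and 35.0% (34.2 to 35.9) of those away from one were overlapped by a GSK peak. Away from any TSS the members had 0.64 LSD1 peaks per 100 kb in Veh and 0.21 in GSK, against 0.68 and 0.56 over the loci of all genes. Neighbouring loci overlap in that average, so a peak can count for several genes.

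The bases around the summits of the strongest of these peaks, 50 on each side, show what kind of sequence they stood on: the first 3 were listed in Veh alone, the fourth, at Tbxa2r near Hmg20b, was kept and is shown at its Veh summit, and the fifth, at Marcksl1 near Hdac1, was listed in GSK alone. All are written on the plus strand of GRCm38.p6, and none held a match to the 6 motifs.
Kdm1b intron 20, chr13:47081156-47081256: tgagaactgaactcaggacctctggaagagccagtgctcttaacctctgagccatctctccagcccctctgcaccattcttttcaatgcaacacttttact
Rcor2 upstream, chr19:7262585-7262685: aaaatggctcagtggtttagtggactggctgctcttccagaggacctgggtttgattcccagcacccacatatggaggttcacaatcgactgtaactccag
Rcor1 downstream, chr12:111122463-111122563: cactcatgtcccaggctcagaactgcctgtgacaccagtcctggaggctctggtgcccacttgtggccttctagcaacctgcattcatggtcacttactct
Tbxa2r near Hmg20b, chr10:81329394-81329494: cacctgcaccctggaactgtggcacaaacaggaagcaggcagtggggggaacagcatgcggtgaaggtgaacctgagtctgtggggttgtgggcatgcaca
Marcksl1 near Hdac1, chr4:129514527-129514627: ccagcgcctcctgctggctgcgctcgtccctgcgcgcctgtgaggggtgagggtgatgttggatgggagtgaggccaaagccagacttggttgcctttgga

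The reference marks repeats, and 74 of the bases shown at Kdm1b, 91 at Rcor2 and 21 at Rcor1 were so marked, against 0 at Tbxa2r and at Marcksl1. Of the 6 Veh-only summits, 3 were on a marked base (Kdm1b, Rcor2 and Zmym2). Of the 4 Veh summits that were kept, 0 were. The 4 kept Veh peaks were all within 1 kb of another gene's TSS, and the 6 Veh-only peaks were all away from any. These groups thus differed in place as well. In GSK, 1 of the 4 kept summits was on a marked base, that of the peak at Tbxa2r, and 0 of the 5 listed in GSK alone were. Of these 9 GSK peaks, 7 were within 1 kb of another gene's TSS. At the members' own promoters, 0 of 8 summits in Veh and 0 of 13 in GSK were on a repeat. Over all LSD1 peaks of Veh, summits lay on a repeat in 8.01% of those at a protein-coding promoter, 22.7% of those elsewhere that a GSK peak overlapped and 31.0% of those elsewhere that none overlapped. Over all LSD1 peaks of GSK, set against Veh in the same way, the shares were 6.81%, 24.1% and 35.5%. The part of repeats in these peaks was not tested. Among all Veh summits away from promoters, the RUNX letters were found in 18.8%, AP-1 in 7.26%, GC box in 5.36%, GFI1 in 4.42%, ETS in 2.79% and T-box in 2.77%.

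**Figure D5:**
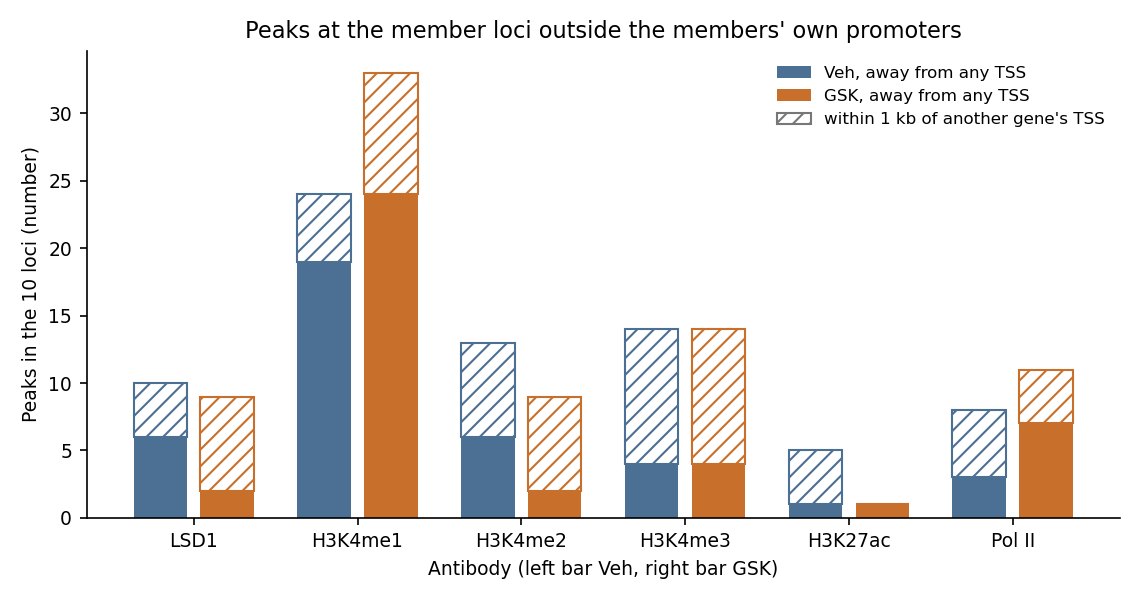
Number of peaks in the 10 loci outside the members' own promoters (vertical axis) for each antibody, Veh in blue and GSK in orange; solid parts are peaks away from any TSS and hatched parts those within 1 kb of another gene's TSS. LSD1 away from any TSS goes from 6 to 2 and H3K4me1 from 19 to 24, while H3K4me3 has 4 in both.

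The histone marks outside promoters kept different shares, as they did over the whole lists. H3K4me1 had 24 peaks at 8 loci in Veh and 33 at 9 loci in GSK (64.1% and 67.5% of all genes had one), and 23 of the 24 Veh peaks were overlapped in GSK. H3K4me2 had 13 at 6 loci and 9 at 5 loci (46.9% and 34.0%), with 8 of the 13 overlapped. H3K4me3 had 14 at 7 loci in both treatments (46.7% and 48.4%), and 14 of 14 were overlapped. H3K27ac had 5 at 5 loci in Veh and 1 at 1 locus in GSK (26.9% and 12%), and 0 of the 5 were overlapped. Pol II had 8 at 5 loci and 11 at 6 loci (43.1% and 41.1%), with 2 of the 8 overlapped. Over each whole Veh list, the share overlapped in GSK differed between peaks away from a TSS and peaks at one. In that order it was 87.7% and 88.2% for H3K4me1, 39.0% and 66.2% for H3K4me2, and 92.1% and 99.3% for H3K4me3. For H3K27ac it was 29.2% and 39.4%, and for Pol II 14.5% and 70.6%.

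Away from any TSS there were 19 H3K4me1 peaks in Veh and 24 in GSK, or 2.04 and 2.57 per 100 kb, against 1.70 and 1.97 over the loci of all genes. H3K4me2 away from any TSS went from 6 to 2 (0.64 and 0.21 per 100 kb, against 0.41 and 0.20). Hdac1 gave most of the additional H3K4me1 peaks away from any TSS, with 1 in Veh and 4 in GSK. Phf21a had 3 and 4, Zmym2 had 0 and 1, and each other locus had as many in Veh as in GSK. The list of all H3K4me1 peaks was itself longer in GSK (40272 against 34387) and that of H3K4me2 shorter (9437 against 15219).

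Enhancers were set after the study's definition, as merged H3K4me1 or H3K4me2 regions of either treatment that overlapped no H3K4me3 peak and lay more than 2.5 kb from any TSS. They were rebuilt here from the deposited lists and are not the study's own set. The 10 loci held 15 of the 26730, at 6 loci. H3K4me1 was in both treatments at 10, in GSK alone at 4 and in Veh alone at 0, and 1 at Phf21a had H3K4me2 in Veh alone. Over all 26730 enhancers, 67.1% had H3K4me1 in both, 22.5% in GSK alone and 9.88% in Veh alone. The 4 with H3K4me1 in GSK alone were in Kdm1a intron 1, in Hdac1 intron 3, 34.0 kb downstream of the Hdac1 TSS beyond the start of Marcksl1, and in Phf21a intron 1. LSD1 lay at 1 of the 15 in Veh and 0 in GSK, against 17.5% and 12% of all enhancers.

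A list of 30 related genes was read the same way: other partners of the complex, the NuRD complex, and other complexes built on Hdac1 and Hdac2. H3K4me3 was at 30 of 30 promoters in both treatments (56.0% of all genes). LSD1 was at 20 in Veh (40.9%) and 25 in GSK (46.9%), with 20 in both (36.1%) and 5 in GSK alone (10.8%; Mta3, Mbd2, Gatad2b, Sin3a and Sap18). At the 20 shared promoters the fold was higher in GSK at 17 and lower at 3, with a median ratio of 1.28, against 72.4% higher and a median ratio of 1.15 over all genes with LSD1 in both. The 7 other partners, among them the corepressors Ctbp1 and Ctbp2 and the DNA-binding repressor Rest, all had LSD1 in both treatments, at fold 4.74 in Veh and 6.77 in GSK for Rest. NuRD, a nucleosome-remodelling deacetylase, had it at 5 of 12 promoters in Veh and 8 in GSK.

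Among the related genes, H3K4me2 was at 20 promoters in Veh (44.2% of all genes) and 12 in GSK (32.0%), with 8 in Veh alone (14.3%) and 0 in GSK alone (2.09%). H3K27ac was at 19 (22.9%) and 11 (9.55%), with 8 in Veh alone (13.8%) and 0 in GSK alone (0.390%). Pol II was at 20 (33.1%) and 12 (28.1%), with 8 in Veh alone (8.28%) and 0 in GSK alone (3.30%). H3K4me1 was at 10 (33.3%) and 11 (40.4%), with 3 in Veh alone (3.70%) and 4 in GSK alone (10.8%). The GSK lists of H3K4me2 and H3K27ac were also much the shorter ones (9437 against 15219 peaks, and 2751 against 7410). The Pol II lists were of nearly equal length (15401 in GSK and 15638 in Veh). The part of list length in these counts was not tested.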

How the data were processed

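ChIP-seq peak lists of 12 libraries, 6 antibodies in Veh and GSK cells, were read as deposited. The authors aligned reads to mm10 with Bowtie2, removed PCR duplicates and called peaks with MACS2 against input at a p-value cutoff of 0.001, and the histone lists hold −log10 q values above 3. The deposited fold enrichment is the ratio of ChIP to input signal, and the −log10 p and −log10 q columns are those of the authors' peak caller. Both were used unchanged, and the caller's own score column was not used. Depth is not given in the lists, and the study's library totals are used in the report for their order alone. To compare signals, the authors also drew equal read numbers from the libraries at random. Whether the deposited lists were called on such reads is not clear.

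Genes and TSSs were taken from curated RefSeq transcripts of GRCm38.p6, and 0 peaks lay past a chromosome end. Overlaps of at least 1 bp were counted in Python 3.11.15 with NumPy 2.4.6, and Wilson intervals, which cover counting error only, came from SciPy 1.17.1. The overlap code was tested on planted peaks. With 1 library for each antibody and treatment no test was run. Genes other than the members were named when a TSS lay in a locus, when a peak of a locus lay in or at them, when on the related list, or when among the 5 promoters most like Kdm1a. Some results on related and marker genes are not reported here. Phf21a's summit sequence was added after its values were seen. The members and lists were chosen with earlier results of these data known. Alternatives covered list length, −log10 q, the promoter window, the flank and the overlap.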

Additional observations from a re-analysis of the deposited data

How the results depend on the processing

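Of 137 values recomputed under alternative settings, 109 stayed within 1.5 times the reported count or within its interval, and those that moved are given here. The flank moved most counts outside promoters, as its construction implies. With 10 kb on each side, LSD1 had 5 peaks in GSK, H3K4me2 7 in Veh and 5 in GSK, H3K4me3 6 in each, H3K27ac 2 and 0, and Pol II 5 and 7. With 50 kb there were 26 and 28 for LSD1 (Veh and GSK), 54 and 67 for H3K4me1, 30 and 17 for H3K4me2, 30 and 31 for H3K4me3, 18 and 4 for H3K27ac, and 21 and 20 for Pol II, so the order of the treatments turned for LSD1 and Pol II. With lists of equal length, H3K27ac in Veh had 1 promoter and 2 peaks outside promoters, and its share of Veh peaks overlapped by GSK went from 12.5% (1 of 8) to 0%. At a −log10 q of at least 2, Pol II had 4 peaks outside promoters in each treatment. At the same cutoff LSD1 had 7 in Veh and 8 in GSK, which is within 1.5 times the reported counts, but the order of the treatments turned. With promoters of 2.5 kb on each side, H3K4me1 in GSK lay at 8 promoters, adding Rcor1, Rcor3 and Zmym2. Pol II at the Zmym2 promoter in Veh and at the Rcor3 promoter in GSK did not reach a −log10 q of 2, and the GSK H3K4me1 peak at Phf21a dropped out of the list cut to the length of Veh. No LSD1 or H3K4me3 promoter count changed under any of these. Ranked by −log10 p, the median percentile of the Veh H3K4me2 promoters was 73.5 in place of 39.2.

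No paired analysis was possible because each antibody and treatment had 1 library. A peak near the caller's cutoff in 1 treatment can be missing in the other. By the study's totals the libraries compared differed in depth, most for H3K27ac.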
